A study of Mus musculus with 32 samples.

Results

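The genes described here are 9 genes that mark mast cells: Mcpt4, Tpsb2, Cma1, Cpa3, Kit, Ms4a2, Fcer1a, Hdc and Gata2. They are 9 of the 55289 named genes in each of the authors' 5 deposited tables, found by their symbols in the first column, and all 9 are listed with reads in every table. The set was chosen on the heart fold changes of Mcpt4 and Tpsb2, which were negative, so the heart fold changes are given as a description and carry no test of the set. The series compares Ftsj1-deficient mice, labelled Ftsj1_DF, with wild-type mice, labelled WT. Ftsj1 is an X-linked gene for a tRNA 2'-O-methyltransferase. All 14 mice were untreated males of 4 months. Heart, kidney, brain and liver came from 3 Ftsj1_DF and 3 WT mice that are brothers within 2 sets, and spleen from 4 Ftsj1_DF and 4 WT mice of other sets, 1 library per mouse and organ. The labels do not give the strain or the nature of the Ftsj1 allele, and brothers share parents, so mice are not fully independent.

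Mast cells are tissue-resident immune cells that store proteases and histamine in granules and release them when IgE bound to their high-affinity receptor is cross-linked. They arise from bone marrow progenitors and need the receptor Kit to survive. In the mouse, connective tissue mast cells, such as those of heart, skin and peritoneum, carry the chymases encoded by Mcpt4 and Cma1, the tryptase encoded by Tpsb2 and the carboxypeptidase encoded by Cpa3, whereas mucosal mast cells carry Mcpt1 and Mcpt2. Fcer1a and Ms4a2 encode the alpha and beta chains of the IgE receptor, Hdc encodes the histidine decarboxylase that makes histamine, and Gata2 encodes a transcription factor needed for the lineage. Kit, Hdc and Gata2 are also used outside mast cells: Kit in haematopoietic progenitors, melanocytes and some neurons, Hdc in histaminergic neurons and basophils, and Gata2 in endothelium and blood progenitors.

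Degradome sequencing counts short tags that start where poly(A) RNA without a cap begins, here prepared from 5 µg of total RNA per sample, so each value reflects decapped or cleaved transcripts and not the level of intact mRNA. In whole organs, fewer cells of a type and less RNA per cell cannot be told apart. Tags of near-identical proteases, such as those of the chymase cluster on chromosome 14 and the tryptase cluster on chromosome 17, could be shared between genes, so single values there are uncertain. A positive fold change was read as higher in Ftsj1_DF because the authors' deposited tables do not state the direction and Ftsj1 itself was negative in all 5, ranging between -3.38 ± 0.59 (log2 ± SE), liver-named, and -1.56 ± 0.61, kidney. For Ftsj1 in the heart table this was -1.72 ± 1.03, with an adjusted p of 0.594, so this check of the genotypes did not pass the threshold in the table that chose the genes. Nor did it in kidney, where the adjusted p of Ftsj1 was 0.202, and directions in both tables rest on this check.

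The table named for brain held hepatocyte transcripts, with 7 hepatocyte markers summing to 235611 ppm and 8 neuronal markers to 20.5 ppm, where ppm is the share of the table's summed means multiplied by 1000000, so it is called brain-named here. The table named for liver held 2258 ppm of the neuronal markers, the highest of the 5 tables, beside 2682 of the hepatocyte markers, and is called liver-named. The heart table matched its label, with 81980 ppm of 8 cardiomyocyte markers, of which Actc1 was listed at 0. The kidney table held 9529 ppm of proximal tubule markers. The spleen table held 13069 ppm of B cell markers and 147542 of pancreatic acinar markers. These marker values are from the authors' deposited means.

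The 3 promoter windows are shown because their genes belong to the granule proteases of connective tissue mast cells and GATA2 is a known regulator of the lineage. They span 250 bases before to 50 after the start of each gene in RefSeq, build GRCm38.p6, on the minus strand. The windows are chr14:56062261-56062560 for Mcpt4, chr14:55944626-55944925 for Cma1 and chr3:20242132-20242431 for Cpa3. Capitals mark the GATA core GATAA or its reverse complement TTATC.
Mcpt4 promoter: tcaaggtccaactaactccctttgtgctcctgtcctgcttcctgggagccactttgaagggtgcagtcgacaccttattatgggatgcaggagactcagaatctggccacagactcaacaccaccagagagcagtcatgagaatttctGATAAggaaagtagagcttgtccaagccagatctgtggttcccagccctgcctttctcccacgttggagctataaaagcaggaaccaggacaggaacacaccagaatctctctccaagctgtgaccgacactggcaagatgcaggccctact
Cma1 promoter: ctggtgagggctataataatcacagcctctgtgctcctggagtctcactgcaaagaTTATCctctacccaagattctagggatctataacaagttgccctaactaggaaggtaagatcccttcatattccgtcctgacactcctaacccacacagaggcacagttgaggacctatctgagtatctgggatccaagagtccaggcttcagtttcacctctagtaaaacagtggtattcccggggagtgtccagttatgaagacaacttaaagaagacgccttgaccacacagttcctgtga
Cpa3 promoter: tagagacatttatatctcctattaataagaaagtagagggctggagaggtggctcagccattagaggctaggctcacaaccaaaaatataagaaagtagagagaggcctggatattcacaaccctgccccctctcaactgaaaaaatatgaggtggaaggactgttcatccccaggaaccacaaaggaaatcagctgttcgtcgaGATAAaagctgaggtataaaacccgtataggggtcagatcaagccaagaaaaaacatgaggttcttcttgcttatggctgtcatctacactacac
In these 3 windows the match began 102, 194 and 45 bases before the start, in the order printed. Windows were at hand for 8 of the 9 genes, all but Tpsb2, and 5 of the 8 held GATAA or TTATC on either strand: Mcpt4, Cma1, Cpa3, Ms4a2 and Fcer1a. Kit and Gata2 have 2 windows each, so per window this is 5 of 10. Of all 32851 windows of the same length, 25.4% held one. A match of 5 letters is a description of the sequence and is not evidence that a factor binds there.

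The levels of the 9 genes differed between the tables, and which table was highest depended on the gene. Because the tables were normalized separately, a level across tables is given as a share, in ppm, of the summed means of the authors' deposited table. The 3 serine proteases were highest in the heart table. Mcpt4 stood at 1.16 ppm in heart, then 0.523 in spleen, 0.178 in kidney, 0.111 brain-named and 0.0337 liver-named. Tpsb2 stood at 1.23 in heart, 0.579 in spleen, 0.0847 brain-named, 0.0716 liver-named and 0.0175 in kidney. Cma1 stood at 12.4 in heart and 10.7 in spleen, against 2.64 in kidney, 0.500 brain-named and 0.210 liver-named. Heart over spleen was thus 2.23 for Mcpt4, 2.12 for Tpsb2 and 1.16 for Cma1. No spread is attached to these ratios, because the spleen means of these genes were not resolved into libraries. The shares average both genotypes. Implied means of Mcpt4 were 3.53 in Ftsj1_DF and 114 in WT in heart, and 30.4 and 20.5 in spleen. Those of Tpsb2 were 4.03 and 120 in heart, and 35.7 and 20.7 in spleen. Their highest place in heart therefore rests on the WT mice.

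Cpa3, Ms4a2, Fcer1a and Hdc were highest in the spleen table, at 2.97, 0.0808, 0.276 and 5.85 ppm. Cpa3, the exopeptidase stored with the chymases, varied least of the proteases, with 1.90 in kidney, 1.53 in heart, 0.746 liver-named and 0.507 brain-named. Ms4a2 ranged from 0.0385 in the liver-named table to its spleen value, and its 5 means all lay under 4 normalized counts. Fcer1a was at 0.102 in heart and at most 0.0200 in the other tables. Hdc stood at 2.48 in kidney, 2.32 brain-named, 1.78 liver-named and 0.391 in heart, so the histamine-making enzyme was lowest where the chymases were highest. Kit was highest in the liver-named table at 30.6, beside 27.8 in spleen, 13.1 in kidney, 5.15 brain-named and 1.87 in heart. Of 3 other denominators, 2 put Kit highest in spleen, and 1, without mitochondrially encoded genes, kept it highest in the liver-named table. Gata2 was highest in kidney at 18.8, followed by 9.69 in heart, 6.04 liver-named, 3.02 in spleen and 1.27 brain-named. These are shares of the authors' deposited means.

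**Figure D1:**
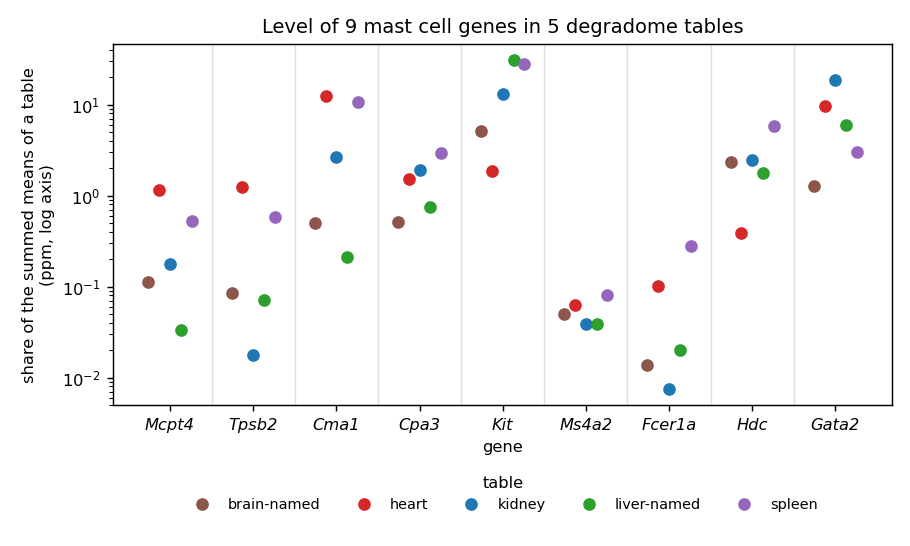
Level of the 9 mast cell genes in the 5 tables, as the share of the table's summed means in ppm on a log axis, 1 point per gene and table. The red heart points of Mcpt4, Tpsb2 and Cma1 are the highest of their genes, at 1.16, 1.23 and 12.4, and the heart points of Kit and Hdc are the lowest of theirs, at 1.87 and 0.391.

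In heart, Mcpt4 and Tpsb2 were far lower in Ftsj1_DF, and the other 7 genes did not pass the threshold. The authors' deposited heart table gives Mcpt4, a chymase, a log2 fold change of -5.01 ± 0.76 (SE) around a mean of 58.6 normalized counts, with an adjusted p of 2.59e-07, the 3rd smallest p in the table. Group means that this mean and fold change imply are 3.53 in Ftsj1_DF and 114 in WT. The 95% interval of the fold change is -6.50 to -3.52. Tpsb2, a tryptase, has -4.90 ± 1.01 around a mean of 62.0 in the authors' deposited table, with an adjusted p of 0.00128, the 16th smallest. Its implied group means are 4.03 in Ftsj1_DF and 120 in WT, with an interval of -6.87 to -2.92. These 2 of 7 tested genes were called lower beside 0.771% of all 19847 tested genes called lower, 0.418% called higher and 1.19% called in either direction, and since this contrast chose the genes nothing is read from the count.

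The deposited mean of a gene with few reads could be resolved into whole reads per library, without a label of genotype or mouse. In the heart table, Mcpt4 had 74, 194, 4, 4, 96 and 2 reads in libraries 1 to 6, numbered by falling size factor. Its 374 reads thus lay almost wholly in libraries 1, 2 and 5, and each of the other 3 had 4 or fewer. Tpsb2 had 133, 232, 3, 0, 38 and 8 reads, with none in library 4. Divided by the size factors, Mcpt4 stood at 58.5, 178, 3.79, 4.36, 105 and 2.36, and Tpsb2 at 105, 213, 2.84, 0, 41.5 and 9.43. For both genes libraries 1, 2 and 5 were above the other 3, and library 2 held 51.9% of the Mcpt4 reads and 56.0% of the Tpsb2 reads. An Ftsj1_DF group of 3 libraries with an implied Mcpt4 mean of 3.53 cannot hold a library at 58.5 or more. With the direction read as above, libraries 1, 2 and 5 of the heart table are thus the WT group. Their height restates the contrast that chose the genes.

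Cpa3 was spread over all 6 heart libraries. It had 82, 19, 128, 65, 59 and 106 reads, with a log2 fold change of 1.11 ± 0.62 and an adjusted p of 0.541 in the authors' deposited table. The implied means were 106 in Ftsj1_DF and 48.9 in WT, so the carboxypeptidase that is stored with Mcpt4 and Tpsb2 lay on the other side of 0 from them. It is also the gene nearest to the threshold on its outer side, and Tpsb2 is the nearest on its inner side. Library 2, the highest for Mcpt4 and Tpsb2, was the lowest for Cpa3. Cma1, the other chymase, had a mean of 626 and -0.52 ± 0.61, with an adjusted p of 0.852 and implied means of 515 in Ftsj1_DF and 738 in WT, again from the authors' deposited table. Its mean is too high to be resolved into reads per library.

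The receptor genes were sparse in heart. Ms4a2 had 8, 0, 5, 1, 2 and 4 reads and a log2 fold change of 0.30 ± 1.79, and Fcer1a had 30 reads, 14 in library 3 and 16 in library 5, and -0.39 ± 3.20, both without an adjusted p in the authors' deposited table. At this depth, differences of several-fold in the IgE receptor genes were not detectable. Kit had a mean of 94.2 and 0.74 ± 0.89, with an adjusted p of 0.854 and implied means of 118 in Ftsj1_DF and 70.4 in WT. Hdc had 16, 5, 11, 61, 19 and 3 reads, and the authors' deposited table gives it 1.09 ± 1.18 with an adjusted p of 0.837. Of the Hdc reads 53.0% came from library 4, which had 4 reads of Mcpt4 and none of Tpsb2. Gata2 had a mean of 489 and -0.45 ± 0.34, with an adjusted p of 0.722 and implied means of 413 in Ftsj1_DF and 565 in WT. Of the 7 tested genes 3 were higher and 4 lower, with a median log2 fold change of -0.45, beside 0.01 over all tested genes of the authors' deposited heart table.

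**Figure D2:**
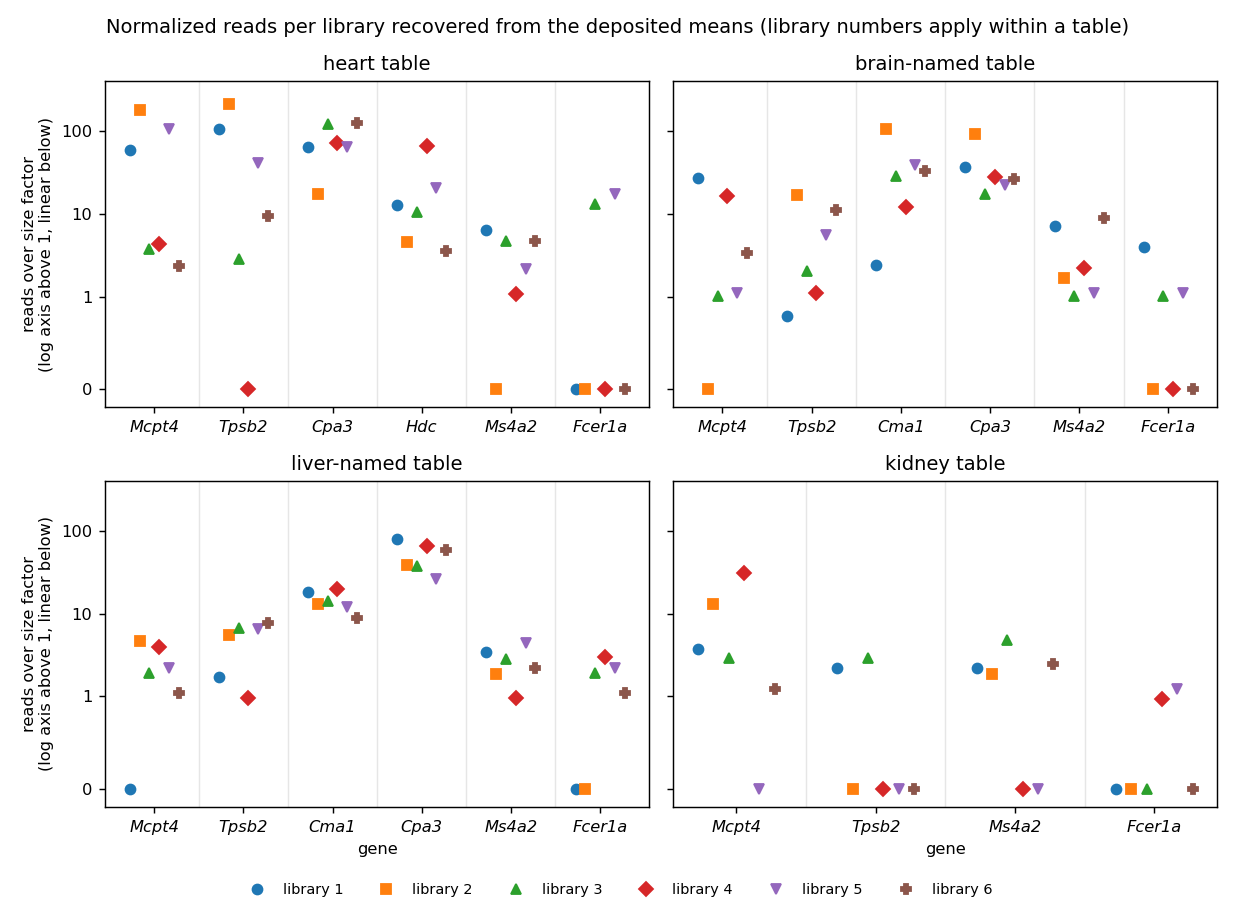
Reads divided by size factor in each library of 4 tables, for the genes whose deposited mean could be resolved, with 1 marker per library on an axis that is logarithmic above 1 and linear below. Library numbers apply within a table and carry no genotype label. In heart, libraries 1, 2 and 5 stand above the others for Mcpt4 and Tpsb2, and for Cpa3 library 2 is the lowest.

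Outside heart no member passed the threshold. The authors' deposited tables give an adjusted p for 24 of the 36 values of the 9 genes in the other 4 tables, of which 12 were higher and 12 lower in Ftsj1_DF, and 0 were called. The lowest adjusted p was 0.251, and 3 of the 36 had an unadjusted p under 0.05, all 3 in the brain-named table. The percentage of all tested genes called in either direction was 2.07% for kidney, 0.414% brain-named, 0.217% for spleen and 0.203% liver-named. Against such shares, a count of 0 among 9 genes is not a result about them.

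In the brain-named table, Mcpt4 and Tpsb2 pointed in opposite directions. Mcpt4 had -3.39 ± 1.40 around a mean of 8.18, with an unadjusted p of 0.0155 and no adjusted p in the authors' deposited table. Its reads were 34, 0, 1, 15, 1 and 3, so libraries 1 and 4 held most of its 54 reads. Tpsb2 had 3.10 ± 1.26 around a mean of 6.22, with an unadjusted p of 0.0141 and no adjusted p in the authors' deposited table. Its reads were 1, 20, 2, 1, 5 and 10, so the libraries rich in Mcpt4 were poor in Tpsb2. Cma1 had 2.04 ± 0.80, with an unadjusted p of 0.0105 and an adjusted p of 0.251 in the authors' deposited table, and implied means of 59.0 in Ftsj1_DF and 14.3 in WT. Its reads were 3, 125, 28, 11, 35 and 30, and library 2 held 53.9% of them. Cpa3, with 46, 111, 17, 25, 20 and 24 reads, was also highest in library 2, at 0.80 ± 0.69 and an adjusted p of 0.786. Ms4a2 had 9, 2, 1, 2, 1 and 8 reads and Fcer1a 5, 0, 1, 0, 1 and 0. Kit at -0.32 ± 0.44, Gata2 at -0.35 ± 0.50 and Hdc at 0.28 ± 0.52 had the narrowest errors of the 9 genes in that deposited table of the authors. Markers of pancreatic acinar cells also differed between the groups there: all 7 tested were higher in Ftsj1_DF with an unadjusted p under 0.05, with a median log2 fold change of 4.04, and their sums were 431422 in Ftsj1_DF and 32539 in WT. Of these, Amy2a5, a pancreatic amylase gene, was called at 2.63 ± 0.69 in the authors' deposited table. The part of this difference in the values of Tpsb2, Cma1 and Mcpt4 was not tested.

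In kidney, Kit had 0.90 ± 0.71 and Gata2 0.72 ± 0.88, and Hdc had -0.70 ± 0.93 and Cma1 -0.71 ± 1.64, with 0.720 as the lowest adjusted p of the authors' deposited table. Cpa3 lay at -0.07 ± 0.96. Mcpt4 had 5, 14, 3, 32, 0 and 1 reads and -1.09 ± 1.94, and Tpsb2 had 3 reads in each of 2 libraries and none in the other 4. Cma1, the chymase of the same cells, had a mean of 128 in the authors' deposited kidney table. The IgE receptor genes were sparse there too, with 12 reads of Ms4a2 and 2 of Fcer1a.

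In the liver-named table all 6 libraries held reads of both Cma1 and Cpa3. Cma1 had 21, 14, 15, 20, 11 and 8 reads, and Cpa3 had 93, 42, 39, 66, 24 and 52. The authors' deposited table gives -0.09 ± 0.83 for Cma1 and 0.17 ± 0.65 for Cpa3. Mcpt4 had 0, 5, 2, 4, 2 and 1 reads and Tpsb2 2, 6, 7, 1, 6 and 7, with fold changes of 1.27 ± 2.00 and -0.06 ± 1.42 on the log2 scale. Ms4a2 had 16 reads and Fcer1a 8. Hdc at -0.77 ± 0.61, Kit at -0.41 ± 0.55 and Gata2 at -0.07 ± 0.40 did not pass, with 0.692 as the lowest adjusted p in the authors' deposited table.

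In spleen all 9 genes had an adjusted p in the authors' deposited table, and the lowest was 0.998. Mcpt4 had 0.57 ± 1.17 around a mean of 25.5 and Tpsb2 0.79 ± 2.41 around a mean of 28.2. The 95% interval was -1.72 to 2.86 for Mcpt4 and -3.94 to 5.52 for Tpsb2. Fcer1a had 6, 45, 28, 0, 0, 46, 0 and 0 reads in the 8 libraries, so 4 libraries held all 125. Ms4a2 had 1, 8, 13, 2, 4, 2, 3 and 2 reads, with -1.65 ± 1.13 in the authors' deposited table. Gata2 had 1.18 ± 0.95, Cma1 0.44 ± 0.68, Hdc 0.34 ± 1.19, Cpa3 -0.19 ± 0.65 and Kit -0.26 ± 0.94.

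Whether a fold change differed between 2 tables was tested for the 6 pairs of tables other than heart, by a z from the deposited fold changes and standard errors over all genes with a p in both. Of 54 tests of the 9 genes 0 passed after Benjamini-Hochberg adjustment over all genes, and 1 had an unadjusted p under 0.05. That one was Mcpt4, lower by -3.96 ± 1.82 on the log2 scale in the brain-named than in the spleen table, with a p of 0.0299. Over all genes the percentage called was 0.653% for brain-named minus kidney, 0% for brain-named minus liver-named, 0.0223% for brain-named minus spleen, 0.38% for kidney minus liver-named, 0.185% for kidney minus spleen and 0.035% for liver-named minus spleen. Tables other than spleen share mice, which this z does not take into account.

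**Figure D3:**
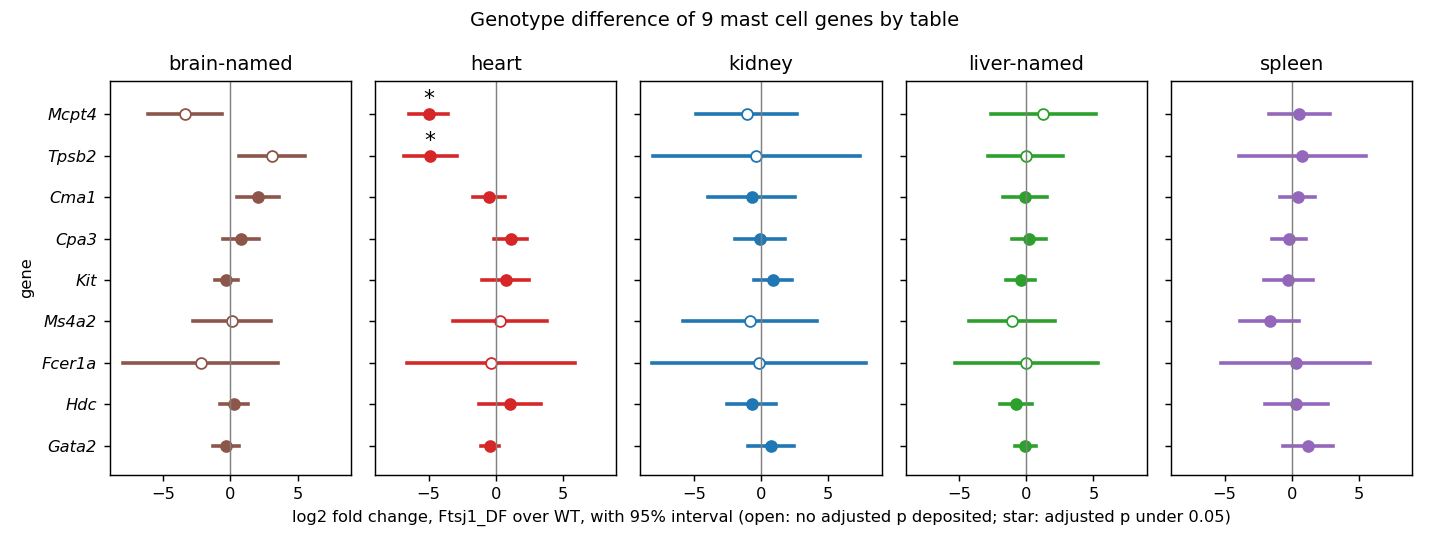
Log2 fold change of Ftsj1_DF over WT for the 9 genes in the 5 tables, with 95% intervals from the authors' standard errors. Open points have no adjusted p in the authors' deposited table, and stars mark an adjusted p under 0.05. Mcpt4 at -5.01 and Tpsb2 at -4.90 in heart are the starred points, and every interval of the kidney, spleen and liver-named panels spans 0.

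The neighbours of Mcpt4 and Tpsb2 in RefSeq gene order were mostly near 0 reads in heart. Beside Mcpt4 on chromosome 14, Mcpt9, Mcpt2 and Mcpt8 were listed at 0, Mcpt1 had 17 reads, 14 of them in library 4, and Ctsg had 2. The authors' deposited table gives Cma2, a chymase gene of the same cluster, a mean of 5.47 and -1.25 ± 1.26 in heart. Beside Tpsb2 on chromosome 17, Tpsab1, which RefSeq lists as a transcribed pseudogene in its reference strain, had 4 reads. Tpsg1, the gene of a membrane-anchored tryptase, had 262, 2, 0, 7, 1 and 0 reads, so 1 library held 96.3% of them. The authors' deposited table gives Tpsg1 a log2 fold change of -4.78 ± 2.86 and no p. Cacna1h, the calcium channel gene on the far side of Tpsg1, had 0.65 ± 0.65 and an adjusted p of 0.819.

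Among 24 other mast cell genes none passed the threshold in any of the 5 tables. With 10 to 15 of them tested per table, against 1.19% of all tested genes called in heart, 2.07% in kidney and 0.203% to 0.414% in the other 3, a count of 0 is not a result about them. In heart 13 were tested, 6 of them higher and 7 lower, with a median log2 fold change of -0.25. The 3 with the highest heart means in the authors' deposited table were Cd63, a granule membrane tetraspanin that most cells use, at 0.06 ± 0.24, Ndst2, the sulfotransferase that makes mast cell heparin, at 0.44 ± 0.48, and Maob, a monoamine oxidase, at -0.36 ± 0.49. The mucosal proteases Mcpt2 and Mcpt9 were at 0 in heart, as were Adora3 and Slc45a3. Il1rl1, the receptor of IL-33, had 18, 53, 16, 28, 127 and 4 reads, of which library 5 held 51.6%. The authors' deposited heart table gives it -1.99 ± 0.98, with an unadjusted p of 0.0416, the 1 gene of the 24 with a p under 0.05 there, and an adjusted p of 0.44. It was chosen after its values were seen.

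In the pathway lists around the 9 genes, the calls are read beside the 1.19% of all tested genes called in heart and the 2.07% called in kidney, and nothing particular to a list is read from 1 call. Of the 17 genes of IgE receptor signalling 16 were tested in heart, 7 higher and 9 lower, with a median of -0.10. Inpp5d, the inositol phosphatase SHIP1 that restrains mast cell activation, was called higher at 1.05 ± 0.28, with an adjusted p of 0.0229 in the authors' deposited heart table. Btk, a kinase downstream of the receptor, was called lower in kidney at -1.30 ± 0.28, with an adjusted p of 0.00063, and had -1.70 ± 0.52 in heart, with an adjusted p of 0.0726, by the authors' deposited tables. Of 11 genes of Kit ligand and signalling, 7 were higher, 4 lower and 0 called in heart, with a median of 0.21. Grb2 had 0.39 ± 0.28, Ptpn11 0.21 ± 0.28 and Stat5a 0.37 ± 0.25 in the authors' deposited heart table. Of 12 transcription factors of the lineage 11 were tested in heart, with a median of 0.00, and Bhlhe40 was called lower at -1.01 ± 0.29, with an adjusted p of 0.0428 in the authors' deposited table. Of the 8 histamine genes 5 were tested in heart and 0 called, among them Slc22a3, a histamine transporter, at -0.19 ± 0.29, Slc18a2, which loads histamine into granules, at 1.14 ± 0.79, and the receptor gene Hrh1 at -0.45 ± 0.62. Basophil markers were not called in heart, where Mcpt8 was at 0, and Il4 was called higher in kidney at 4.35 ± 1.22, with an adjusted p of 0.0254 in the authors' deposited table.

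Several lists of markers of other cell types that a heart sample can carry had negative medians beside Mcpt4 and Tpsb2. Of 6 tested adipocyte markers 5 were lower in heart, all 5 with an unadjusted p under 0.05 and none called, with a median of -2.14. Retn had -2.22 ± 0.80, Cfd -2.20 ± 0.79 and Pnpla2, which many cells use, 0.24 ± 0.22 in the authors' deposited table. The list summed to an implied 56329 in Ftsj1_DF and 61680 in WT, mostly Pnpla2, with Lipe at 0. Of 4 tested B cell markers 3 were lower, with a median of -1.78, and Ighm, the heavy chain of IgM, was called lower at -2.28 ± 0.66, with an adjusted p of 0.0481 in the authors' deposited table. The B cell sums were 1656 in Ftsj1_DF and 7094 in WT, with Ms4a1 at 0. Of 6 tested thymocyte markers 4 were lower, with a median of -1.03 and sums of 208 in Ftsj1_DF and 534 in WT, and Rag1 and Rag2 were at 0. Cd5, a T cell surface receptor, was called lower at -4.53 ± 0.89, with an adjusted p of 0.000503 in the authors' deposited table. Of 5 tested markers of thymic and squamous epithelium 4 were lower, with a median of -1.50 and sums of 5539 in Ftsj1_DF and 15051 in WT. The chemokine gene Ccl25 at -1.50 ± 0.40 and the keratin gene Krt17 at -5.69 ± 1.02 were called lower, with adjusted p of 0.022 and 7.48e-05 in the authors' deposited table. Of 7 tested mesothelial markers 6 were lower, with a median of -0.70 and sums of 2863 in Ftsj1_DF and 4844 in WT. The 1 with an unadjusted p under 0.05 was Wt1, which was higher at 1.29 ± 0.53. Its authors' Wald p was 0.016 and its adjusted p 0.289. Of 7 lung epithelium markers 1 was tested, Sftpd, and it was not lower, at 0.17 ± 0.94. The list summed to 19.9 in Ftsj1_DF and 314 in WT, mostly from Sftpc, Scgb1a1 and Scgb3a2. Sftpc, a surfactant gene, had -7.71 ± 2.15, Scgb1a1, a club cell gene, -8.55 ± 3.91 and Scgb3a2 -8.20 ± 3.91. None of them had a p in the authors' deposited table. Ager was at -0.10 ± 1.86, and Sftpb at 0.60 ± 1.43 and Sftpa1 at 0.21 ± 4.08 lay above 0. All 6 tested hepatocyte markers, with a median of -0.65, all 8 acinar markers, with -0.50, and all 7 tested neuronal markers, with -0.22, were below 0, and 0 of them were called. Of 7 tested proximal tubule markers 5 were lower and 2 higher, with a median of -0.37. The erythroid and megakaryocyte list leaned the other way, with 5 of 6 tested markers higher and a median of 0.59. In these last lists 0 were called, beside 1.19% of all tested genes. The part of these lists in the values of Mcpt4 and Tpsb2 was not tested.

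The main cell types of the heart had medians between -0.22 and 0.41. The median was 0.00 for 7 cardiomyocyte markers, 0.16 for 8 endothelial markers, -0.22 for 8 fibroblast markers and 0.41 for 8 macrophage markers, and 0 of these were called. Beside 1.19% of all tested genes called, that count is not a result about them. Myl3 had 0.12 ± 0.25, the endothelial receptor gene Tek 0.18 ± 0.28, the fibroblast proteoglycan gene Dcn -0.20 ± 0.26 and the macrophage receptor gene Csf1r 0.33 ± 0.28 in the authors' deposited table. Of 8 haematopoietic progenitor markers, which share Kit and Gata2 with mast cells, 4 were higher and 4 lower in heart, with a median of -0.02. Of 4 tested melanocyte markers, which share Kit, 3 were lower in heart, with a median of -0.57 and sums of 1071 in Ftsj1_DF and 2444 in WT. In heart 2 of them had an unadjusted p under 0.05 in the authors' Wald test and 0 were called. Dct, of the same list, was called higher in kidney at 4.99 ± 1.29, with an adjusted p of 0.0121 in the authors' deposited table. Kidney also had Dntt at 4.04 ± 1.00 and Krt14 at 6.15 ± 1.69 called higher in the authors' deposited table, where 2.07% of all tested genes were called.

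**Figure D4:**
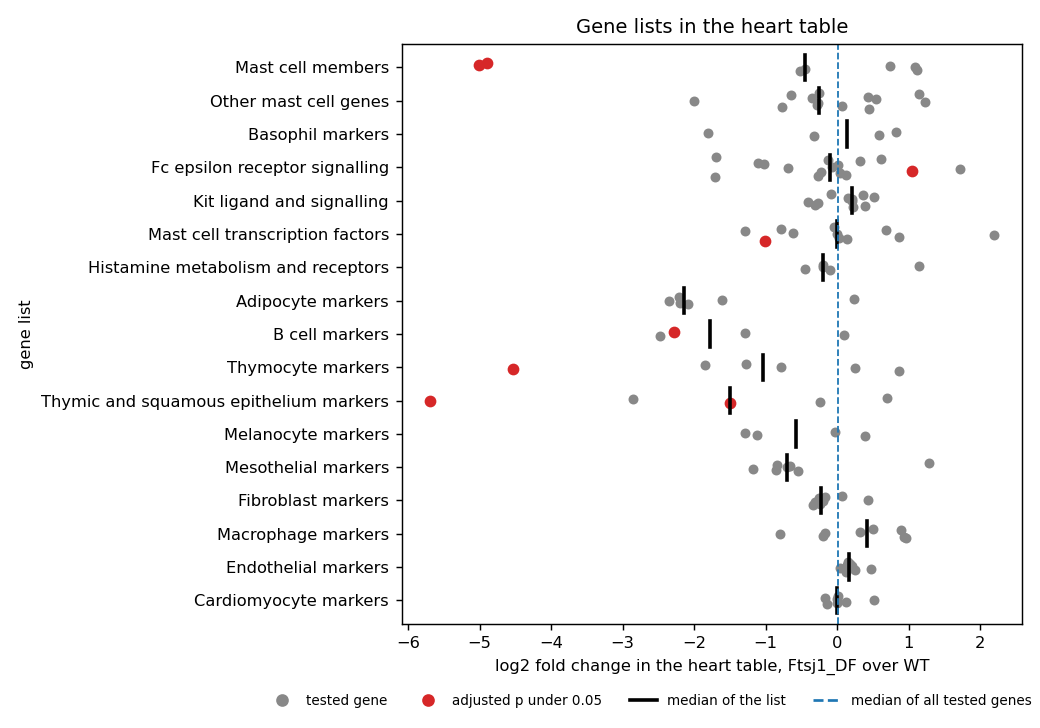
Log2 fold change of Ftsj1_DF over WT in the heart table for tested genes of 17 lists, 1 point per gene, with red points at an adjusted p under 0.05, black bars at list medians and the dashed line at the median of all tested genes, 0.01. Mcpt4 and Tpsb2 stand near -5 apart from the other mast cell genes, and the medians of adipocyte markers, at -2.14, and B cell markers, at -1.78, lie farthest to the left.

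Among the 5 genes whose profile over the 5 tables was nearest to that of Mcpt4, by the Euclidean distance of centred log2 shares among 13733 candidates, were Ndufb1, Vamp5, Tnxa and Rps2-ps4, at distances of 1.17 to 1.32. Those nearest to Tpsb2 were Ung, Pf4, Scn4a, Ccl24 and Myb, at 1.44 to 1.55. None of these 9 genes is on a mast cell list, Pf4 is on the megakaryocyte list and Myb on that of blood progenitors, and all 9 had an adjusted p of 0.517 or more in the authors' deposited heart table, with log2 fold changes between -0.36 and 1.46. With a pseudocount of 1 ppm in place of 0.01, 0 of the 5 genes stayed in either set, and with Pearson's correlation 1 of 5 stayed in each.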

How the data were processed

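Uncapped poly(A) RNA was sequenced as short tags in 32 libraries, and the samples were grouped by organ and genotype from their titles. The submitters' processing notes name GRCm39, featureCounts, Subread 2.0.3 and DESeq2; the aligner and the DESeq2 model are not given in the sources used here. Each organ has 1 table, with the genotype comparison as the authors fitted it. The deposited mean is a signal: counts that the authors divided by size factors and averaged over an organ's libraries. The deposited fold change and standard error are on the log2 scale, the deposited statistic is a score equal to their ratio, and the deposited p-values, unadjusted and adjusted, come from the authors' fit. A single row without a gene name was left out of every table.

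Tests of genotype are the authors' DESeq2 Wald tests at a false discovery rate of 5%, over all genes tested, and 95% intervals use their standard errors. Depth per library is not stated; the size factors recovered from the means spanned 1.30-fold in the liver-named to 2.84-fold in the spleen table. Means that single reads take gave these factors, and means up to 80 (15 in spleen) were searched for sets of whole reads that fit within 1e-13, and reads are given only where 1 set fits. This resolved 24 of the 45 values of the 9 genes, and 100% of genes with a mean under 1.5 came out whole in each table. The reads carry no genotype label, so no count test was run on them. The method was tested on simulated data. Tables were read with pandas 2.3.3 and numpy 2.4.6 in Python 3.11.15, normal tails came from scipy 1.17.1 and plots from matplotlib 3.10.9.

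The 9 genes and 25 lists were chosen with earlier results of these data known. Beside the 9 genes and Ftsj1, the text names list members past the threshold in any table, or up to 3 with the highest heart means, the 5 genes nearest in profile to Mcpt4 and to Tpsb2, and the RefSeq neighbours of both. In the profile set of Mcpt4, 1 gene is not reported here. Other genes were named after their values were seen, such as Il1rl1, Btk in heart, Pnpla2 and those listed at 0. Mice are the replicates, and with 3 or 4 per genotype, their number limits the precision.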

Additional observations from a re-analysis of the deposited data

How the results depend on the processing

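In heart, Mcpt4 and Tpsb2 were the 2 genes past the threshold under all 7 alternatives run: a stricter and a looser false discovery rate (1% and 10%), adjustment without the authors' filter, low means left out (under 20), small changes left out (log2 under 1), and the statistic rescaled or centred. The adjusted p ranged from 2.20e-07 to 7.65e-05 for Mcpt4 and from 0.00113 to 0.0283 for Tpsb2, the highest values being those with the statistic divided by its robust spread of 1.16. Because this heart contrast chose Mcpt4 and Tpsb2, their passing again on its own values is not independent support for them. A looser rate of 10% had to keep both genes. The limits on mean and fold change did not exclude them, at means of 58.6 and 62.0 and log2 fold changes of -5.01 and -4.90. Outside heart, 0 of the 9 genes passed under the 7 alternatives. In the brain-named, kidney and liver-named tables, Mcpt4 and Tpsb2 had an adjusted p only when the authors' filter was left out. The other alternatives had no way to call them there. The 1 gene highest in the liver-named table, Kit, became 0 without the 50 highest genes of any table and 0 with a median of ratios, when Kit was highest in spleen, and stayed 1 without mitochondrially encoded genes. The differences between tables stayed at 0 calls when genes with a mean under 20 in either were left out. No paired analysis was possible because the authors' deposited tables hold no values tied to a mouse, so neither a block by brothers nor leaving out 1 mouse at a time was run. Low counts limit Ms4a2 in every table and Fcer1a outside spleen. They also limit Mcpt4 and Tpsb2 in the brain-named, kidney and liver-named tables. In spleen, the Fcer1a reads lay in 4 libraries, and the standard error of its log2 fold change was 2.84.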

Other observations

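The libraries recovered from the deposited means carry no genotype label, and their values fell into separate clusters for some genes of the heart table. By the implied group means of Mcpt4, libraries 1, 2 and 5 of that table are the WT group. Libraries 1, 2 and 5 held the Mcpt4 reads, at 74, 194 and 96, against 4, 4 and 2 in libraries 3, 4 and 6. Cd5, the gene of a T cell surface protein, had 89, 262, 2, 7, 39 and 5 reads in libraries 1 to 6. The keratin gene Krt17 had 164, 262, 2, 2, 18 and 3. For Cd5 and Krt17, as for Mcpt4 and Tpsb2, libraries 1, 2 and 5 were the 3 highest and library 2 the highest. Each of these genes was called lower in heart, so the high place of libraries 1, 2 and 5 restates those calls. Adipoq, an adipocyte hormone gene, had 63, 80, 11, 10, 11 and 9 reads, so libraries 1 and 2 stood apart but library 5 did not. Dntt, an enzyme gene of lymphocyte precursors, had 75, 188, 56, 5, 43 and 16 reads. Cd22, the gene of a B cell surface protein, had 237 of its reads in library 2 and at most 21 in any other. These genes were picked after their values were seen.

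Tpsg1 had 262 reads in library 1 of the heart table and at most 7 in any other. Ltc4s, the leukotriene synthase gene of mast cells and eosinophils, had 187, 0, 129, 3, 40 and 130 reads in heart, with a log2 fold change of 0.54 ± 1.51 in the authors' deposited table. Some other genes of the mast cell list were spread over all 6 heart libraries. Rab27b, a granule transport gene, had 77, 41, 54, 25, 55 and 19 reads, and Srgn, the granule proteoglycan gene, had 42, 36, 53, 29, 73 and 34. Mrgprb1, of the same list, was sparse and uneven, with 7, 6, 1, 0, 1 and 0 reads. Its log2 fold change was -3.41 ± 2.26, without an adjusted p in the authors' deposited table. Mrgprb2 had 5, 4, 5, 0, 7 and 6 reads. In spleen, Fcer1a had reads in 4 of 8 libraries, and the other 4 had none.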
